A study of Mus musculus with 13 samples.

Results

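The cornified envelope and barrier genes encode the proteins, enzymes and lipid handling factors that upper epidermal cells make as they turn into the outer skin barrier. A list of 39 such mouse genes was followed, and 34 of them were read by probe sets annotated to that gene alone, out of 12394 genes on the array. Where a gene had several such probe sets, the one with the highest mean over the 13 arrays was used. Sbsn, Abca12, Klk5, Cnfn and Spink5 had no such probe set. A filter on dim genes, set on the mean over all arrays, left 32 members among the 7436 genes tested. Tgm3 and Hal fell below it and are given as values only.

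RNA was taken from cultured mouse primary keratinocytes, the cell type that builds the epidermis. Per the labels, every culture, the untreated one included, carried a retroviral construct in which the p63 isoform DNp63alpha is joined to an estrogen receptor domain, so that tamoxifen can switch the fusion protein on. Untreated cells gave 1 array, and so did each of 12 times after tamoxifen, spaced by 20 min and ending at 240 min. Neighbouring arrays were grouped into hour 1 (20, 40 and 60 min), hour 2 (80, 100 and 120 min), hour 3 (140, 160 and 180 min) and hour 4 (200, 220 and 240 min). Nothing says that separate cultures were used, and each p-value therefore reflects scatter among the 13 arrays alone, which may be technical. Cells lacking the construct, or sampled over the same hours with no tamoxifen, were not analysed here, so the action of the fusion protein, of tamoxifen itself and of elapsed time cannot be told apart. In bulk RNA, fewer cells that express a gene and less RNA of it per cell cannot be told apart either.

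In the epidermis, basal cells divide and hold high DNp63alpha, and their daughters differentiate as they move outward. In the upper layers, structural proteins such as involucrin, loricrin and the small proline-rich proteins are cross-linked under the plasma membrane by transglutaminases, and ceramides are attached to this shell. Proteases of the kallikrein family then cut the junctions that hold the dead cells together. Many of the structural genes lie side by side in a cluster called the epidermal differentiation complex.

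Most of the barrier genes fell over the 4 h. A straight line in time, fitted with limma to log2(intensity + 16) of all 13 arrays, called 27 of the 32 tested members lower and 0 higher at an adjusted p under 0.05. Among all 7436 tested genes the same fit called 17.6% lower and 22.3% higher. The median fitted change over 4 h was -0.39 on the log2 scale for the members and 0.019 for all genes. A fall of more than 1.5-fold was called for 11 members, against 4.06% of all genes, and one of more than 2-fold for 6 members, against 0.955%, and no member was past either limit upward (2.08% and 0.188% of all genes). A curve with 3 degrees of freedom, a natural spline, passed in 21 members, against 24.9% of all genes. The 6 past 2-fold were Rptn (repetin), Cidea, Sprr2i, Scel (sciellin), Pof1b and Cst6 (cystatin E/M). These folds are read from the ends of the line. The log2 mean of the last 3 arrays minus the untreated array was -1.43, -1.24, -1.06, -0.94, -1.15 and -0.80 in the same order, so Scel and Cst6 were short of 2-fold by that measure. The 5 members that did not pass were Ppl, Alox12b, Evpl, Casp14 and Lor. When the line was fitted together with a jump between 60 and 80 min, 0 of the 27 slopes passed, against 0.0134% of all genes.

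**Figure D1:**
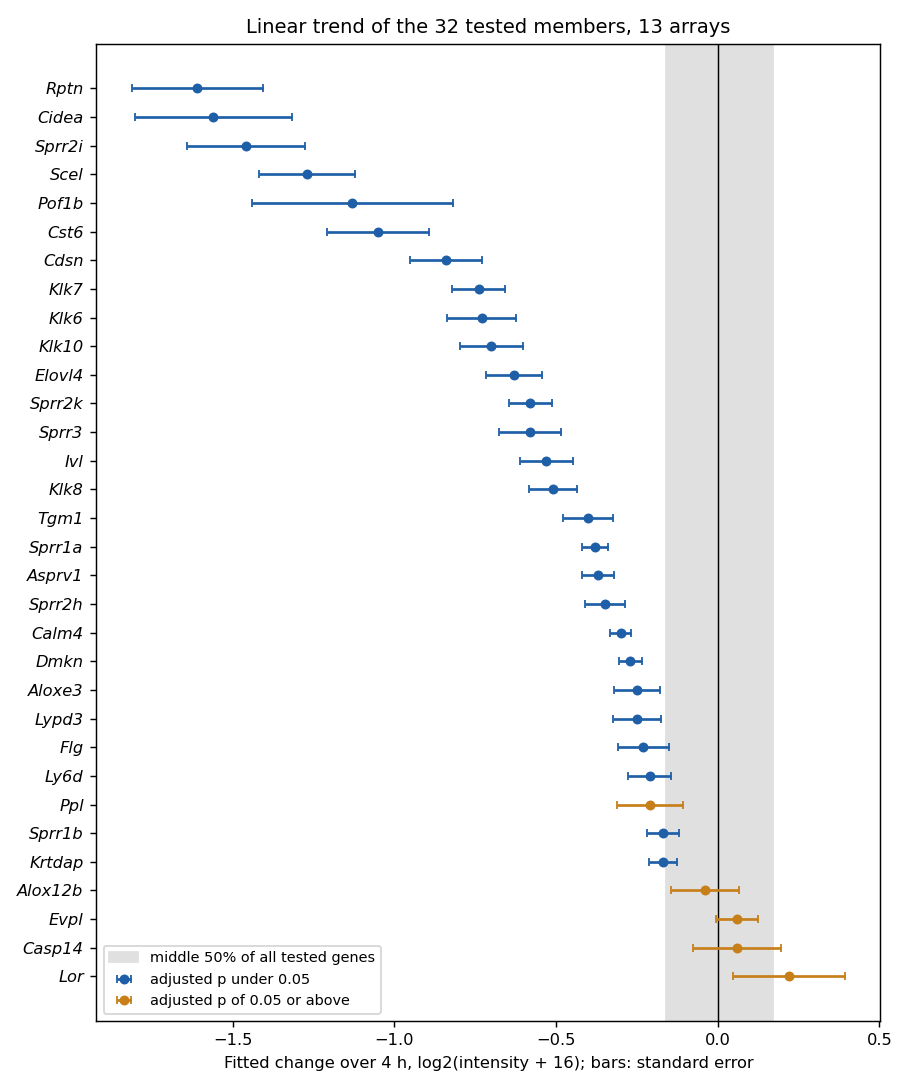
Fitted change over 4 h of the 32 tested members on the log2(intensity + 16) scale, with the standard error as bars; the grey band is the interquartile range of all tested genes. The members run from -1.61 for Rptn to 0.22 for Lor, and 27 of them, in blue, passed at an adjusted p under 0.05, all below 0.

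Of the 13 structural proteins of the envelope that were tested, 10 fell and 0 rose, with fitted changes from -1.61 to 0.22. Rptn, a glutamine-rich precursor of the envelope, read 1610.0 intensity units in untreated cells, then 1667, 1749.7 and 1379 in hour 1, 1232, 1143 and 923 in hour 2, 1086, 793 and 964 in hour 3, and 489.9, 534 and 776 in hour 4. Every hour 4 value lay below every value of the hours before it. The fitted fall was 3.05-fold (a log2 change of -1.61 ± 0.202, SE of the fit; adjusted p = 0.000118). Both other Rptn probe sets were dim, at no more than 110.6 and 171.4 units in any array, and neither had a trend (adjusted p = 0.0648 and 0.329 among 20393 probe sets). When all probe sets of the gene were averaged, the fitted change of Rptn was -0.54.

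Scel, another precursor that transglutaminases cross-link into the envelope, read 935 in untreated cells, 1011, 1166 and 775 in hour 1, 743, 758 and 586 in hour 2, 540.3, 483 and 518 in hour 3, and 476, 446 and 515 in hour 4. The values of hours 3 and 4 all lay below the lowest value up to 120 min, and the fitted fall was 2.41-fold (-1.27 ± 0.148, SE; adjusted p = 9.77e-05). Sprr2i, one of the small proline-rich proteins that bridge other envelope proteins, read 2243 in untreated cells, 2539, 2935 and 2119 in hour 1, 1544, 1540.5 and 1182 in hour 2, 1326, 1196 and 1128 in hour 3, and 1038, 1286 and 911 in hour 4. All values from 80 min lay below all values up to 60 min, and the fall was 2.75-fold (-1.46 ± 0.183, SE; adjusted p = 0.000118). Ivl (involucrin), an early scaffold of the envelope, was highest at 20 min (939) and read 634, 606 and 608 in hour 4, a fitted fall of 1.45-fold (adjusted p = 0.000254).

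The other small proline-rich genes fell less: Sprr2k 1.5-fold, Sprr3 1.49-fold, Sprr1a 1.30-fold, Sprr2h 1.28-fold and Sprr1b 1.12-fold. The smallest intensity of Sprr1a was 13608 and its largest 17909, close to the brightest probe sets of these arrays (maxima from 18969 to 19676), so that its change may be understated. The change of Sprr1b, which lay between 12128 and 14722, may be understated likewise. Sprr2 genes are near-identical copies, and the Sprr2h probe set is of a type that can read several of them, so the split between Sprr2h, Sprr2i and Sprr2k is uncertain. Flg (profilaggrin, which bundles keratin filaments) fell 1.17-fold (adjusted p = 0.0296), and its call was lost without the untreated, 40, 200 or 240 min array, with changes between -0.20 and -0.24. The plakin genes Ppl and Evpl, whose proteins tie the envelope to desmosomes and keratins, had changes of -0.21 ± 0.102 (SE; adjusted p = 0.11) and 0.06 ± 0.0661 (SE; adjusted p = 0.469).

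**Figure D2:**
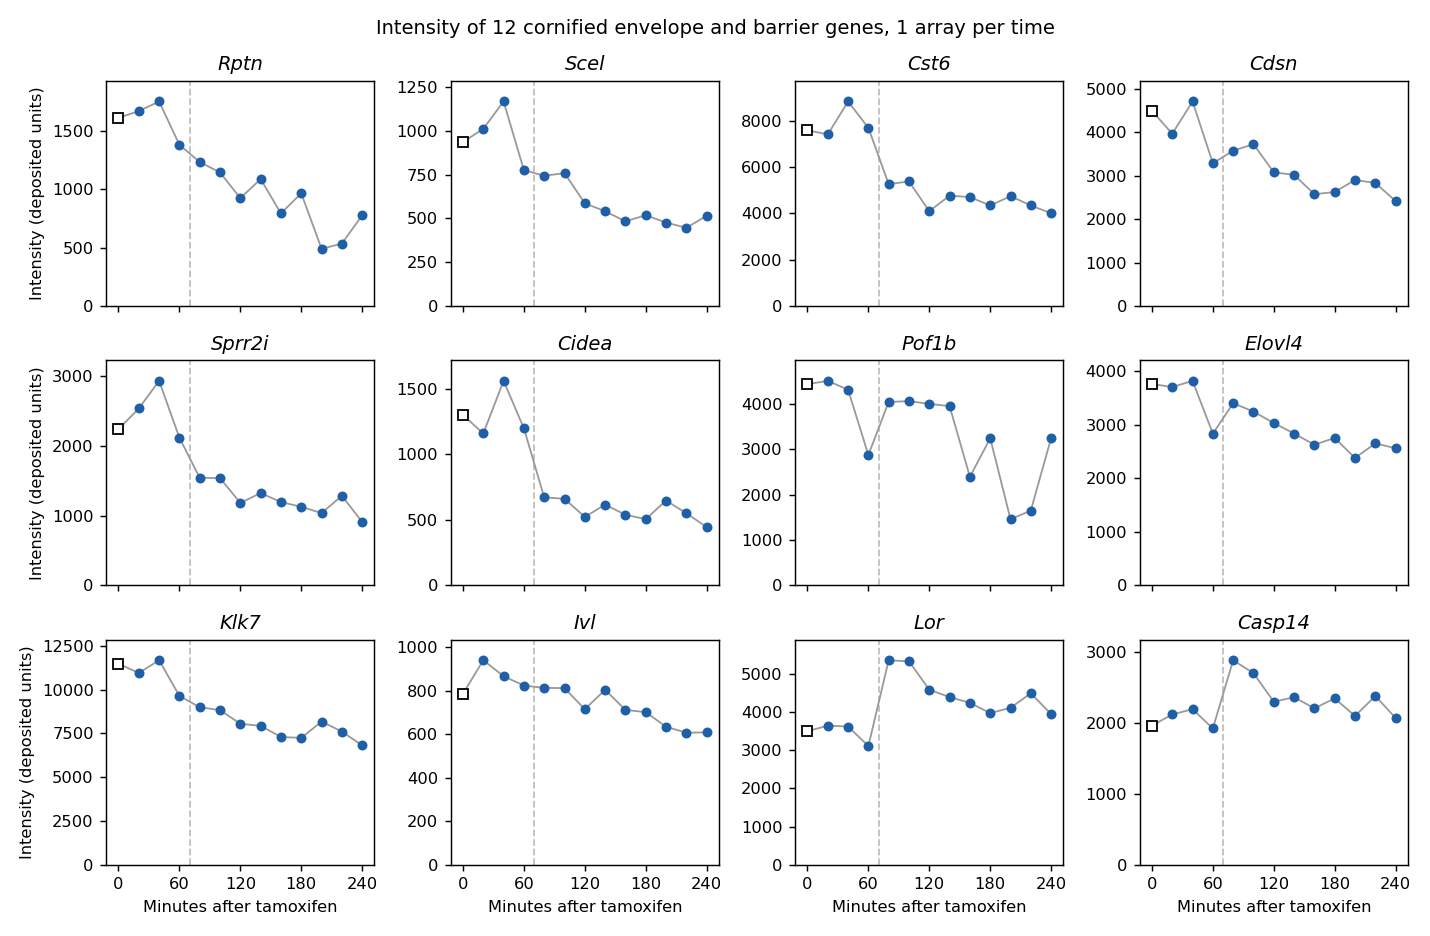
Intensity of 12 members in each of the 13 arrays (linear axis from 0; open square, untreated; filled circles, after tamoxifen; dashed line, the boundary between 60 and 80 min). Cidea drops from 1198 to 672 and Lor climbs from 3109 to 5353 across that boundary, while Pof1b has separate low readings at 60, 160, 200 and 220 min.

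Lor (loricrin), the most abundant protein of the mature envelope, took another course. It read 3497 in untreated cells, 3640.3, 3618 and 3109 in hour 1, 5353, 5322 and 4581 in hour 2, 4389, 4237 and 3969.8 in hour 3, and 4108, 4488 and 3942 in hour 4. Every value from 80 min on was above every value up to 60 min, and the highest were the first of hour 2. Hour 2 was above hour 1 by 0.56 ± 0.0763 on the log2 scale (SE; 1.47-fold; adjusted p = 0.000388). Another Lor probe set read between 3373 and 3589.5 up to 60 min and between 3928 and 4839.8 from 80 min, again with no overlap. The dimmest Lor probe set stayed between 125.5 and 145.0.

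The 250 bases before the annotated start are shown for the 3 structural genes with the largest falls, for Ivl, and for Lor, whose course differed from theirs. The sequences are RefSeq's for GRCm38.p6, 5′ to 3′ on the gene's strand, with matches to the AP-1 motif (TGANTCA) and to the TATA box (TATAAA) in capitals, searched on both strands; the AP-1 motif reads alike on both and was counted once per place. Their positions are chr3:93393449-93393698 (+) for Rptn, chr14:103513091-103513340 (+) for Scel, chr3:92407741-92407990 (+) for Sprr2i, chr3:92573736-92573985 (-) for Ivl and chr3:92083143-92083392 (-) for Lor. 
Rptn: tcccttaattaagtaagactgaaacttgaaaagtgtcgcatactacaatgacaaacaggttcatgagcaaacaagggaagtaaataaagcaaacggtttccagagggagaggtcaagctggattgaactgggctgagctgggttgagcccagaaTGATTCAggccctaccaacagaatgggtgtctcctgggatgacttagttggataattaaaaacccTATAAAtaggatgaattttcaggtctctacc
Scel: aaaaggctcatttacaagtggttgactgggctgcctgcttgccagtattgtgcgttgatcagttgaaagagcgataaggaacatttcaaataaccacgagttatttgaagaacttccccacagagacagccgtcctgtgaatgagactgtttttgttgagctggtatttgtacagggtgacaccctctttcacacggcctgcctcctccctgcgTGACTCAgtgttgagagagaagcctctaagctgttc
Sprr2i: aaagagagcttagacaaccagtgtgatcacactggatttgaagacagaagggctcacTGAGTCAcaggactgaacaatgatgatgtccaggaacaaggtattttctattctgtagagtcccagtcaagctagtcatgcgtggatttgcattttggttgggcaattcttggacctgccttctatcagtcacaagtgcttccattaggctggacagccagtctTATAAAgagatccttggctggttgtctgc
Ivl: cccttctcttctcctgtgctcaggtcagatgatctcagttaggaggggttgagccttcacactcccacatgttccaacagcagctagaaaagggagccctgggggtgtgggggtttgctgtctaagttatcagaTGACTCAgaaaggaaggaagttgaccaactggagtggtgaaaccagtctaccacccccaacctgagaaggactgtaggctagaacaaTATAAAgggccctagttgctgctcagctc
Lor: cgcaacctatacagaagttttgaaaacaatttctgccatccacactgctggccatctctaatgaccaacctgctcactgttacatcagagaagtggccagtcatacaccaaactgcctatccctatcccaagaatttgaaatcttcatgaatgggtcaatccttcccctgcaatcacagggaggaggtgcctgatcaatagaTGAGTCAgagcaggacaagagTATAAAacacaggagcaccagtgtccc

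Each of the 5 windows held 1 AP-1 match, and all but that of Scel held 1 TATA box match. The AP-1 pattern used allows any middle base, which was T in Rptn and C or G in the other windows. Of the 34 members on the array 28 had a start in the RefSeq table. An AP-1 match was found in 13 of these 28 (46.4%), against 7.82% of the 27025 genes of the table, and a TATA box match in 13 (46.4%), against 14.3%. Both were found in 11 members (39.3%), against 1.65% of all genes. The KLF motif (CACCC) was found in 23 members (82.1%) against 54.5%. The pattern used for the p63 response element matched 0 members and only 0.0111% of all genes. With matches that rare, 0 among 28 members cannot tell whether p63 sites lie near their starts. Matches of different motifs overlapped in 1 member, Sprr1a (KLF with AP-1). A match is a string of letters and not a measured site. The AP-1 match was shared by Rptn, Scel and Sprr2i, which fell, and by Lor, which rose at hour 2. The members are not independent in sequence, since the Sprr2 genes are copies of each other and their matches lie at like places, at -198 in Sprr2h, -193 in Sprr2i, and -196 and -182 in Sprr2k, counted from the annotated start.

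**Figure D3:**
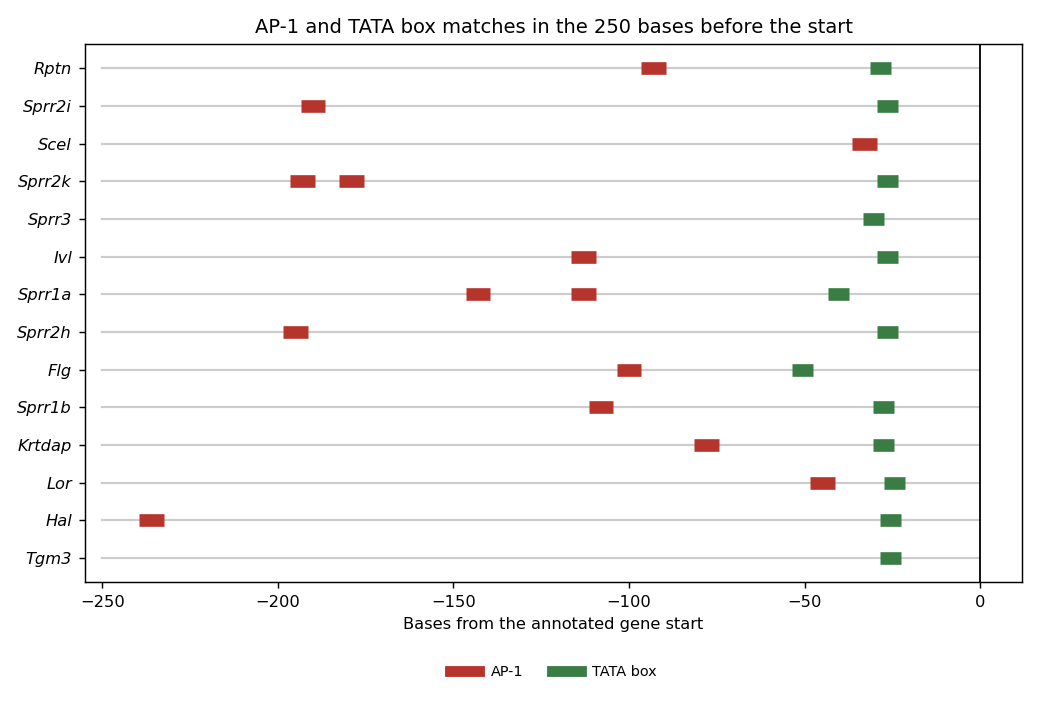
AP-1 matches (red) and TATA box matches (green) in the 250 bases before the annotated start of 14 members, ordered by fitted change with the untested Hal and Tgm3 last; the axis gives bases from the start. Dmkn, which has AP-1 matches before several alternative starts, is not drawn. The AP-1 match lies at -96 in Rptn and at -48 in Lor.

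The genes of cross-linking were represented by Tgm1, Tgm3 and Cst6, and both tested ones fell. Cst6, a protease inhibitor that restrains the cathepsins which activate transglutaminase, read 7592 in untreated cells, 7414, 8836 and 7698 in hour 1, 5265, 5381 and 4096 in hour 2, 4769.7, 4706 and 4343 in hour 3, and 4746, 4344 and 4006 in hour 4. The values up to 60 min and from 80 min did not overlap. The fitted fall was 2.07-fold (-1.05 ± 0.158, SE; adjusted p = 0.000241), and most of it lay between hour 1 and hour 2 (-0.70 ± 0.0995, SE; adjusted p = 0.000463). Tgm1, the membrane-bound transglutaminase of the envelope, was at 792 in untreated cells, between 907 and 938 in hour 1 and between 666 and 728 in hour 4, a fall of 1.32-fold (adjusted p = 0.00108). Tgm3, a soluble transglutaminase, was dim, between 163 and 184 units.

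Among the genes of desquamation and proteolysis 6 of 7 tested members fell and 0 rose. Cdsn (corneodesmosin), the adhesive protein of the junctions that kallikreins cut, read 4489 in untreated cells, 3961, 4703 and 3283 in hour 1, 3572, 3721 and 3073 in hour 2, 3017, 2571 and 2622 in hour 3, and 2897, 2831 and 2414 in hour 4. Its 60 min value lay below both its neighbours, and all values from 120 min lay below all earlier ones. The fall was 1.79-fold (-0.84 ± 0.111, SE; adjusted p = 0.000129). Klk7, which cuts corneodesmosin, read 11482 in untreated cells, 10949.6, 11678 and 9642 in hour 1, 8993, 8829 and 8053 in hour 2, 7929.9, 7298 and 7244 in hour 3, and 8174, 7608 and 6819.5 in hour 4. It fell 1.67-fold (-0.74 ± 0.0818, SE; adjusted p = 9.77e-05), with no overlap between the arrays up to 60 min and those from 80 min. Of the other kallikrein genes Klk6 fell 1.66-fold, Klk10 1.63-fold and Klk8 1.43-fold. Klk7, Klk8 and Klk10 were lower at hour 2 than at hour 1, while Klk6 differed by -0.23 ± 0.0973 (SE; adjusted p = 0.108). Asprv1, a protease that processes profilaggrin, fell 1.29-fold (adjusted p = 0.000154).

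Casp14, the protease that helps to break filaggrin down, was also higher at hour 2. It read 1964 in untreated cells, 2121, 2196 and 1924 in hour 1, 2887, 2704 and 2302 in hour 2, 2364, 2208 and 2348 in hour 3, and 2099.5, 2382 and 2072 in hour 4. Hour 2 was above hour 1 by 0.33 ± 0.0825 (SE; adjusted p = 0.0111), and the hour 4 values overlapped those of hour 1. The dim Hal, which turns histidine from filaggrin into urocanic acid, read 118 in untreated cells, 107 to 127 in hour 1 and 155 to 170.2 in hour 2. When dim genes were tested too, Hal also passed hour 2 against hour 1, while Dmkn and Calm4 no longer did. That setting called 916 genes higher and 1002 lower of 12394.

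In the lipid group 3 of 4 tested members fell. Cidea, a protein of lipid droplets, read 1299.5 in untreated cells, 1158, 1559.5 and 1198 in hour 1, 672, 660.5 and 522 in hour 2, 616, 538 and 505 in hour 3, and 647, 550.3 and 445 in hour 4. The arrays split into those up to 60 min and those from 80 min, with a gap between 672 and 1158. Hour 2 was 2.08-fold below hour 1 (-1.06 ± 0.146, SE; adjusted p = 0.000409), and the fitted fall over 4 h was 2.96-fold. Elovl4, which extends the very long fatty acids of skin ceramides, was at 3765 in untreated cells and at 2381, 2656 and 2562 in hour 4, a fall of 1.54-fold (adjusted p = 0.000164). Its second probe set also fell, by 0.20 per hour on the log2 scale (adjusted p = 8.16e-05 among 20393 probe sets). The lipoxygenase genes Aloxe3 and Alox12b, whose enzymes act one after the other on the same ceramides, are neighbours on chromosome 11. Aloxe3 fell 1.19-fold (adjusted p = 0.0125; lost without the 240 min array at 0.0523), and Alox12b had a change of -0.04 ± 0.105 (SE; adjusted p = 0.765).

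All 6 tested secreted, surface and other late proteins fell, mostly by little. Calm4, a calmodulin-like protein of upper epidermis, fell 1.23-fold (-0.30 ± 0.0319, SE; adjusted p = 8.32e-05), the smallest adjusted p among the members. The secreted Dmkn (dermokine) fell 1.21-fold and Krtdap 1.12-fold, and the surface proteins Lypd3 and Ly6d fell 1.19-fold and 1.16-fold. Calm4 (11505.5 to 14267.6 units), Krtdap (11479.7 to 13997.7) and Dmkn (9695.0 to 11881.6) were among the brightest genes, so their changes may be understated. Lypd3 no longer passed when the untreated or the 20 min array was left out (adjusted p = 0.0525 and 0.0604), nor did Ly6d without the 20 min array (0.0781) or Sprr1b without the 240 min array (0.0629). Pof1b, an actin-binding protein of cell junctions, read 4440.3 in untreated cells, 4513, 4318 and 2877 in hour 1, 4048, 4065 and 4007 in hour 2, 3955, 2397 and 3246 in hour 3, and 1458, 1651 and 3251 in hour 4. The values at 60, 160, 200 and 220 min were the lowest 4, those from 80 to 140 min lay between 3955 and 4065, and those at 180 and 240 min lay between these levels. Its fitted fall was 2.19-fold (adjusted p = 0.00985), and without the 200 and 220 min arrays the change was -0.55 in place of -1.13 and the call was lost (0.0624).

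**Figure D4:**
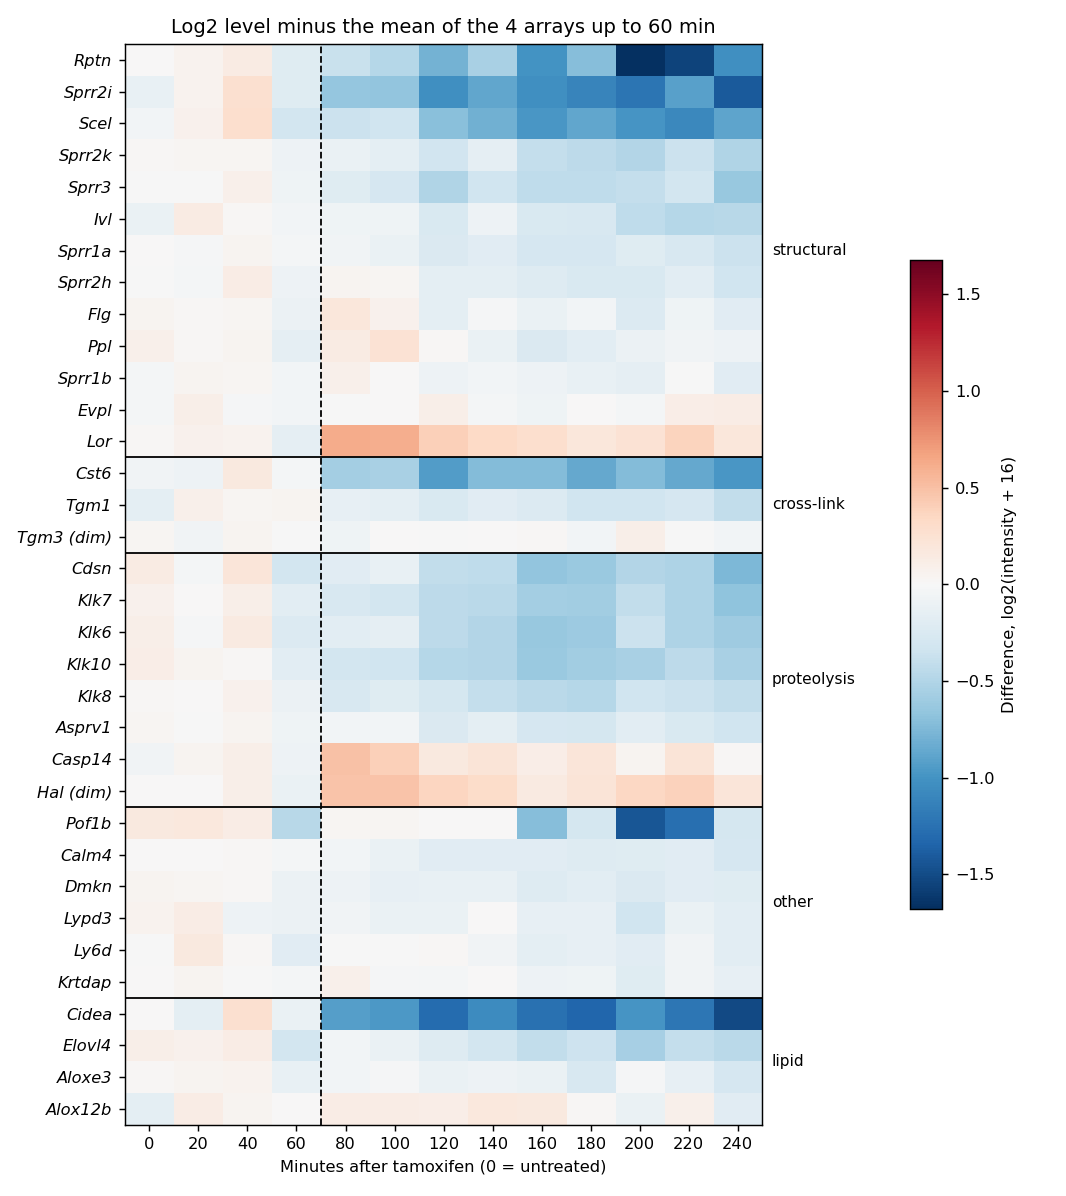
Log2 level of all 34 members in each array minus the member's mean over the 4 arrays up to 60 min, grouped by role and, within a role, ordered by fitted change; the dashed line marks the boundary between 60 and 80 min. Most rows are blue at 240 min, while Lor and Hal stay above their mean up to 60 min from 80 min on. Casp14 is highest at 80 and 100 min and close to its mean up to 60 min at 200 and 240 min.

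The timing was then compared by hour. Hour 1 differed from the untreated array in 0 of 32 members by limma (0.0134% of all genes lower, 0% higher), and at an unadjusted p under 0.05 in 2, Tgm1 and Alox12b, both higher (0.968% of all genes higher, 1.37% lower). The untreated side is 1 array, assumed to scatter like the arrays of the other hours, so this contrast has little power and does not show that the members were level. Leaving out any 1 of the 12 arrays after tamoxifen also gave 0. Hour 2 was below hour 1 in 12 members, against 14.1% of all genes, and above it in 2, Lor and Casp14, against 13.3%. The 12 were Cidea, Sprr2i, Cst6, Rptn, Scel, Sprr3, Klk10, Klk7, Klk8, Tgm1, Calm4 and Dmkn. The count of 12 was 7 without the 40 or the 120 min array. Without the 40 min array the calls of Rptn, Scel, Sprr3, Dmkn and Calm4 were lost, and without the 120 min array the same 5. Among the 27 members with a falling trend, 13 had their largest hourly drop between hour 1 and hour 2, 8 between hours 2 and 3 and 6 between hours 3 and 4. Of all 1312 genes with a falling trend, 62% had theirs between hour 1 and hour 2, 17.1% between hours 2 and 3 and 15.5% between hours 3 and 4.

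Between hour 2 and hour 4 no member's difference passed the test, while most had a negative sign. The difference of hour 4 from hour 2 was below 0 in 31 of 32 members, all but Evpl, against 39.3% of all genes, and the median difference was -0.18 on the log2 scale against 0.028 for all genes. None of these differences passed after adjustment with limma, nor did that of any other gene (0% of genes called in either direction). At an unadjusted p under 0.05 24 members were lower and 0 higher, against 9.56% and 13.5% of all genes. The largest differences were those of Pof1b (-1.02 ± 0.267, SE), Rptn (-0.87 ± 0.169) and Scel (-0.52 ± 0.131), all with an adjusted p of 0.151. In 17 members every hour 4 array read below every hour 2 array, which held for 5.97% of all genes. For Lor and Casp14, higher at hour 2 than at hour 1, the difference of hour 4 from hour 2 was -0.28 ± 0.0763 and -0.26 ± 0.0825 (SE; adjusted p = 0.151 for both). With array weights 9 members passed this contrast and without the 240 min array 5, of which Elovl4, Ivl, Pof1b, Rptn and Scel were common to both; over all genes these settings called 573 lower and 383 higher, and 603 lower and 178 higher.

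**Figure D5:**
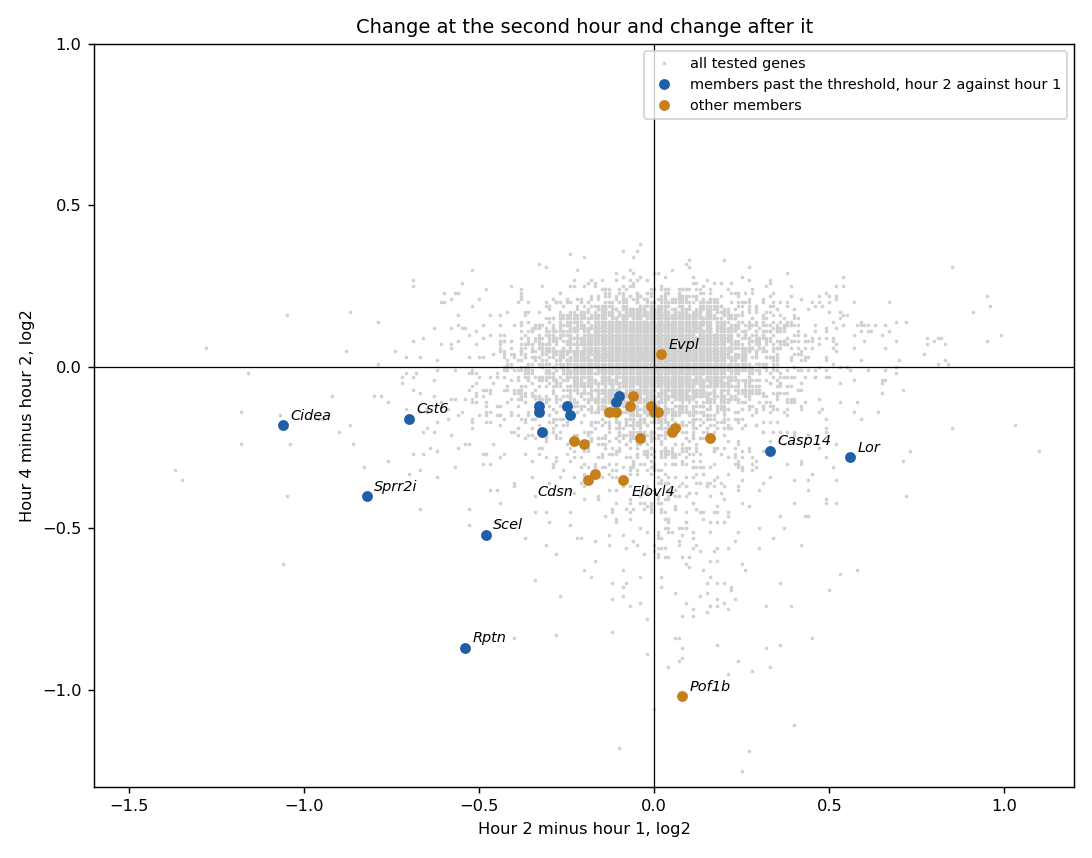
Difference of hour 2 from hour 1 (horizontal) and of hour 4 from hour 2 (vertical), both on the log2 scale, for the 32 tested members (blue where hour 2 against hour 1 passed the threshold) over all 7436 tested genes (grey; 2 genes lie outside the plotted range). Hour 2 is part of both axes, so the axes are not independent. All members but Evpl lie below the horizontal zero line, at 12 blue points left of the vertical zero line and 2 right of it.

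The slope inside the 9 arrays from 80 to 240 min was below 0 in 31 of 32 members, against 41.4% of all genes. The median change over that span was -0.28 for the members and 0.028 for all genes. At an adjusted p under 0.05 limma called 0 members, against 0.0538% of all genes lower and 0.0134% higher, and at an unadjusted p under 0.05 29 members were lower and 0 higher, against 6.83% and 11.5%. The smallest adjusted p was that of Ivl (0.0597; -0.45 ± 0.0758, SE). Without the 200 and 220 min arrays 11 members passed, of 97 genes lower and 4 higher among all 7436: Elovl4, Cdsn, Lor, Sprr1a, Sprr1b, Sprr2h, Sprr2i, Klk7, Asprv1, Calm4 and Cidea. Without the 220 min array 5 passed, of 32 genes lower and 1 higher among all 7436. Without the 240 min array 6 passed, of 185 lower and 52 higher. The fit of a step between 60 and 80 min beside a straight line over all 13 arrays called the step lower in 5 members (Cidea, Cst6, Sprr2i, Klk10 and Klk8), against 7.96% of all genes. It called the step higher in 2 (Lor and Casp14), against 5.1%. Beside the step the slope was below 0 in 31 members, against 42.7% of all genes, with medians of -0.101 and 0.010 per hour. It passed in 0 members (smallest adjusted p = 0.0681), against 0.0134% of all genes. For Lor it was -0.15 and for Casp14 -0.13 per hour. In this series the jump and elapsed time are closely tied, which limits how well the fit can part them.

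Where the members lie in the genome was compared with how they moved. In the RefSeq gene table of GRCm38.p6 the genes Sprr2h, Sprr2i, Sprr2k, Sprr1b, Sprr3 and Sprr1a follow each other on chromosome 3 with 0 other coding genes between them, and all 6 fell, by amounts from 0.17 for Sprr1b to 1.46 for Sprr2i on the log2 scale. Lor lies 9 coding genes before this row, and Flg and Rptn, with 1 coding gene between them, lie beyond Ivl. Neighbours thus had unlike changes, with Flg at -0.23 ± 0.0787 and Rptn at -1.61 ± 0.202 (SE). Klk8, Klk7 and Klk6 are direct neighbours on chromosome 7 and fell by 0.51, 0.74 and 0.73. Dmkn and Krtdap, also direct neighbours on chromosome 7, fell by 0.27 and 0.17. Differences between genes were not tested.

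Other genes of the same programme, from lists set up beside the members, also fell more often than they rose along the linear trend. Of 36 tested genes from a list of keratins, envelope and other upper layer proteins 24 fell and 1 rose (median change -0.39). Among the keratins only Krt80 fell (1.55-fold). Krt1 (-0.03), Krt10 (0.08), Krt23 (-0.19) and Krt77 (0.77) did not pass (adjusted p from 0.0632 to 0.768). The list also holds genes that are neither keratins nor envelope proteins, such as Il18 and Il1rn, which fell. The late envelope genes Lce3a and Lce1a2 fell 2.76-fold and 2.39-fold, and Tchh (trichohyalin) fell 2.59-fold. At hour 2 against hour 1 10 of these 36 were lower and 6 higher, against 14.1% and 13.3% of all genes. Of 9 tested genes from a list made up mostly of desmosome genes 3 fell and 0 rose. The desmocollins Dsc2 and Dsc1 fell 2.40-fold and 1.64-fold and Jup 1.1-fold, while Dsc3 was at -0.38 (adjusted p = 0.0614). The list includes Dst, which is also counted among the basal keratinocyte markers. Of 21 epidermal lipid genes 13 fell and 2 rose, among them Elovl7 (1.83-fold lower), the glucosylceramide synthase gene Ugcg (1.72-fold lower) and Sult2b1 (1.64-fold lower).

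Of 26 tested genes from a list made up mostly of proteases and protease inhibitors 14 fell and 2 rose. The secreted inhibitor Slpi fell 2.56-fold, Sdcbp2, which is neither, 1.82-fold, and the protease Prss22 1.72-fold. Of 23 transcription factors of terminal differentiation 9 fell and 4 rose. Prdm1 (Blimp1) fell 2.02-fold and Elf3 1.65-fold, while Rxra, a partner of nuclear receptors, rose 1.64-fold. These counts stand beside 17.6% of all genes lower and 22.3% higher. Of 14 tested basal keratinocyte markers 2 rose and 0 fell along the trend. Trp63, the p63 gene, rose by 0.26 and Krt5 by 0.10 on the log2 scale. Whether the Trp63 probe set also reads RNA of the DNp63alpha construct was not tested. At hour 2 against hour 1 7 of the 14 were higher, against 13.3% of all genes. The summed intensity of these markers was 57629 in untreated cells and 58586 in hour 4. Krt14 and Krt5 were the brightest of them, at log2 levels of 14.15 and 13.89 in untreated cells, so a change in the sum may be understated.

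Markers of other cells were read beside these changes. Markers of simple epithelia, which are keratins, claudins and Epcam, also fell: 5 of 6 tested (7 of 7 found) were lower along the trend. The largest falls were those of Cldn3 (2.03-fold), Krt8 (1.89-fold) and Krt7 (1.81-fold). After hour 2 their course differed from that of the members, with a median difference of hour 4 from hour 2 of 0.08 against -0.18. The summed intensity of these markers was 13700 in untreated cells, 12624 in hour 1, 9223 in hour 2, 8434 in hour 3 and 9437 in hour 4. Its part in the result was not tested. Of 5 tested hair follicle markers 2 fell (Sox9 and Krt17) and 1 rose (Msx2). The sum over the 15 found was 19491 in untreated cells and 16922 in hour 4. Of the melanocyte markers 7 of 9 found were tested and 1, Mitf, fell along the trend, with sums from 6447 to 7746. At hour 2 against hour 1 4 of the 7 were lower (Mitf, Pmel, Tyr and Dct), with a mean sum of 7454 in hour 1 and 6659 in hour 2, and the part of this in the result was not tested. Of the fibroblast, immune, and endothelial and muscle markers found, only 2 of 11, 1 of 17 and 2 of 12 were above the filter, none of them changed along the trend (adjusted p from 0.195 to 0.867), and their sums ranged from 1692 to 1888, 2450 to 2791 and 1713 to 2039. Of 8 sebocyte markers 3 were above the filter; Fads2 rose by 0.22 (adjusted p = 0.0137), and Scd3 and Mogat2 had adjusted p of 0.0829 and 0.44. The ratio of the 3′ to the 5′ control probe set of Gapdh, a measure of RNA integrity, lay between 0.899 and 0.937 in all arrays. With it as a covariate 27 members were again called lower, and over all genes 1368 lower and 1672 higher. The same ratio of Actb was less even. It was 1.26 at 80 min and 1.27 at 100 min, and between 1.16 and 1.22 in the other arrays. The Actb ratio was not used as a covariate, and its part in the result was not tested.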

How the data were processed

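Per the labels, total RNA was hybridised to Affymetrix arrays. The authors deposited linear intensities for 22690 probe sets. The software and scaling behind them were not given in the sources used here. Medians per array ran from 237.4 to 251.5 units, so changes are relative to the bulk of genes.

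Deposited intensities were used as log2(intensity + 16), which understates changes of dim genes. Probe sets annotated to 1 gene (20393; 691 had several genes and 1606 none) were kept, with symbols updated through a RefSeq table of GRCm38.p6, and each gene was represented by the probe set with the highest mean. Genes under the 40th percentile of mean level (7.83) were left out. limma 3.58.1 in R 4.3.3 (eBayes with intensity trend, two-sided, Benjamini-Hochberg over all genes tested) fitted a straight line over 13 arrays, a fit with 5 levels (untreated and hours 1 to 4), a line over 80 to 240 min, and a natural spline with 3 degrees of freedom, which 21 of 32 members passed (24.9% of all genes). Neighbouring times stand in for replicates. Precision is limited by having 13 arrays; residuals about the line had a median SD of 0.0873. The comparisons share arrays and are not independent. Folds along the trend come from the ends of the line. The steps were tested on simulated data.

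Members and lists were chosen with earlier results of these data known. All members could be named, with all 13 values for the 8 with the largest trends, and the 3 largest slopes of each other list. Lor, Casp14 and Hal got fuller values after their course was seen. Alternatives were other pseudocounts, filters, normalizations, probe set means, moderation, array weights, a step term, a Gapdh ratio and arrays left out.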

Additional observations from a re-analysis of the deposited data

How the results depend on the processing

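The count of 27 members lower along the trend kept within 24 and 27 with each array left out in turn, was 28 with array weights and between 25 and 27 under the other alternatives, except 0 with a step between 60 and 80 min (over all genes 0 lower and 1 higher with that step, against 1312 and 1656). Hour 2 below hour 1 ranged from 7 to 15 members with 1 array left out, and hour 2 above hour 1 from 2 to 3. Over all genes these ranges were 697 to 1122 and 700 to 1067. Dmkn and Calm4 no longer passed this contrast with no filter on dim genes or with eBayes without trend. Rptn was lost with the mean of all probe sets and Sprr3 with the filter at the 60th percentile. Sprr1a was gained with that filter and with both normalizations, and Ivl and Klk6 with array weights. Hour 4 below hour 2, 0 in the main setting, was 9 with array weights and 0 to 5 with 1 array left out. Over all genes this contrast then called 573 lower and 383 higher with array weights and 603 and 178 without the 240 min array. The slope from 80 to 240 min, 0 members in the main setting, called 1 with a filter at the 60th percentile, 2 with the mean of all probe sets, 3 with array weights, 11 without the 200 and 220 min arrays and 0 to 6 with 1 array left out. Over all genes it called 4 lower and 1 higher, and without the 200 and 220 min arrays 97 and 4. With the filter at the 60th percentile it called 14 and 2 of 4958, and with the mean of all probe sets 10 and 2. With array weights it called 21 and 1, and without the 240 min array 185 and 52. Signs turned in uncalled genes only: Alox12b (-0.04) was at 0.08 with array weights and between -0.17 and 0.07 with 1 array left out (0.07 without the 240 min array). Casp14 (0.06) lay between -0.03 and 0.15 with 1 array left out (-0.03 without the untreated array), and with the step it was at -0.51 and Lor (0.22) at -0.59. The cause of these shifts was not tested. The estimate of array weights did not fully converge. No paired analysis was possible because each time had 1 array.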

Other observations

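Single arrays shared a direction across many members. Of the 32 tested members 17 were highest in the 40 min array, against 16.8% of all tested genes, and 15 were lowest in the 240 min array, against 8.67%. In the 60 min array 18 members read below both neighbouring arrays, among them Cdsn, Elovl4, Klk6, Pof1b, Lor and Casp14, against 34.1% of all genes. The same held for 18 members in the 120 min array, against 22.6%, and for 16 in the 200 min array, against 22.9%. Without the 60 min array hour 2 was also below hour 1 in Cdsn, Elovl4 and Klk6.

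The sign of the hourly differences was counted apart from their size. Of the 27 members with a falling trend 9 had lower means in each successive hour, untreated cells included, and the other 18 in 3 of the 4 steps, while among all 1312 genes with a falling trend 24.8% were lower in every step and 44.5% in 3. The 9 were Rptn, Cdsn, Elovl4, Cidea, Calm4, Dmkn, Asprv1, Sprr1a and Sprr2k. In Cidea nearly all of the fall lay in 1 step, with -1.06 on the log2 scale from hour 1 to hour 2 against -0.15 and -0.03 in the later steps. These shares describe means of 3 neighbouring arrays and carry no test.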
